A study of Homo sapiens with 9 samples.

Results

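FHIT is the gene of a diadenosine triphosphate hydrolase, a tumour suppressor, and it spans FRA3B, a common fragile site. Common fragile sites are chromosome regions that show gaps and breaks when replication is mildly inhibited, and FRA3B is among the most fragile of them in human lymphocytes. They often hold very large genes that replicate late in S phase and have few replication origins inside. Histone H2AX is phosphorylated on a C-terminal serine around stalled and broken forks, and the phosphorylated form, γH2AX, is a chromatin mark of replication stress and of DNA breaks.

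The peaks described here were all γH2AX ChIP-seq peaks that overlapped the FHIT gene body by at least 1 bp. There were 225 such peaks among the 213467 peaks of 8 deposited lists. The lists came from a human B-lymphoblastoid cell line, which the sample labels name GM09027A and the study's methods name GM07027. Cells were left untreated or were treated for 24 h with 0.1 μg/mL aphidicolin (APH), 2 mM hydroxyurea (HU) or 200 μM methyl methanesulfonate (MMS). APH inhibits the replicative DNA polymerases, HU lowers the supply of deoxynucleotides and MMS methylates DNA bases. Each condition had 2 replicates from independent treatments and independent ChIPs of the one cell line, and the untreated lists served as controls. The lists hold positions and enrichments without read numbers, so sequencing depth is unknown here. The autosomes carried 4779 and 4327 peaks in the untreated lists and 17658 and 14009 in the APH lists. The HU lists were the longest with 79891 and 69922 autosomal peaks, and the MMS lists held 12202 and 10465. Because list sizes differed this much, each FHIT count is given beside the count that the list's own autosomal mean density would place on a stretch of the same length.

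FHIT (ENSG00000189283.11) lies on chromosome 3 of GRCh38 at chr3:59747277-61251459, on the minus strand, so its 3′ end has the lower coordinate. It is 1504183 bp long and its GC content is 38.9%. The canonical transcript ENST00000492590.6 has 10 exons with 3116 bases in all, or 0.207% of the gene, and the coding sequence runs from exon 5 to exon 9. Intron 4 (chr3:60536980-60821918) and intron 5 (chr3:60014153-60536859) together make up 53.7% of the gene.

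The sequences below show what kind of DNA lay under the FHIT peaks that were found in both APH replicates. They are the 5 sites with the highest mean fold enrichment among the 20 sites where a peak of one APH replicate overlapped a peak of the other, and each run is the 300 bases of the GRCh38 plus strand centred on the stretch that both replicates shared. Capitals mark runs of at least 5 A or at least 5 T.
APH site 1, chr3:60573117-60573416: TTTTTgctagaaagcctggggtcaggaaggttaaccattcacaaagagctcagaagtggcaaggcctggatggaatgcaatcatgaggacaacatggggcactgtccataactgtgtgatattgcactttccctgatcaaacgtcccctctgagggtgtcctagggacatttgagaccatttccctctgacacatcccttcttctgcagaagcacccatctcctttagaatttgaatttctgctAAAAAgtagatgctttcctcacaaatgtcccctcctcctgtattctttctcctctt
APH site 2, chr3:60101624-60101923: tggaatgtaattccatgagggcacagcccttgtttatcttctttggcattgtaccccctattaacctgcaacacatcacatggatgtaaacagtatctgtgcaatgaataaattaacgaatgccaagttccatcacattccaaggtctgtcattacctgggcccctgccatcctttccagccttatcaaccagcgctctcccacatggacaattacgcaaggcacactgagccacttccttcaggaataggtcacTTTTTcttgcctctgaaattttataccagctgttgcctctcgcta
APH site 3, chr3:60437432-60437731: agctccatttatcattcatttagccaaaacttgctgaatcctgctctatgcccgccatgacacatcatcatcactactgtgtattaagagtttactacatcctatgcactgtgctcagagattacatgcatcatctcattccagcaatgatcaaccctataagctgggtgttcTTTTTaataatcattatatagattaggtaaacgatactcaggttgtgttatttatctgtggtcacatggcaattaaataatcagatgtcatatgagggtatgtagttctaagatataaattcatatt
APH site 4, chr3:60856930-60857229: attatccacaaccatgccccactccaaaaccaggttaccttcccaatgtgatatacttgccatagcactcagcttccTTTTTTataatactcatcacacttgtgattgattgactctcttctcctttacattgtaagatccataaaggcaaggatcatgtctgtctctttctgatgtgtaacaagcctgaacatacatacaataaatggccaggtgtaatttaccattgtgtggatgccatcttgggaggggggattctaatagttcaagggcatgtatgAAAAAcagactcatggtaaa
APH site 5, chr3:60015358-60015657: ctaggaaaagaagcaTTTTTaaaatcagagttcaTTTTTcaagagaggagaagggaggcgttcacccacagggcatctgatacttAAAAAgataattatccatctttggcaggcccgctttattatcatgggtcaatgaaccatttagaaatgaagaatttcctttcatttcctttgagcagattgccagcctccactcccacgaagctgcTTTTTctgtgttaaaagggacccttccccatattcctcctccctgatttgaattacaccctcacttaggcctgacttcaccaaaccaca
The 5 runs held between 35.3% and 46.0% GC, and each had at least 1 capital run. Over all 20 sites the GC content was between 33.3% and 55.0% with a median of 41.5%, against a median of 38.7% over the 5013 non-overlapping stretches of 300 bp that tile the gene. A run of at least 5 A or T stood in 15 of the 20 sites (75.0%) and in 82.1% of the stretches, so such runs were not more frequent at the sites than elsewhere in FHIT.

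Under APH the gene was densely covered with peaks, and under the other conditions it carried at most 5. The untreated lists had 0 and 2 FHIT peaks, the APH lists 163 and 48, the HU lists 2 and 1, and the MMS lists 5 and 4. Both APH lists were above all 6 others, whose counts lay between 0 and 5 peaks. APH thus supplied 211 of the 225 peaks. At the autosomal mean density of each list, FHIT would have held 2.61 and 2.36 peaks without treatment and 9.64 and 7.64 with APH. It would have held 43.6 and 38.2 with HU and 6.66 and 5.71 with MMS. FHIT was chosen by these peak counts and their densities, so they are a description and were given no test.

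**Figure D1:**
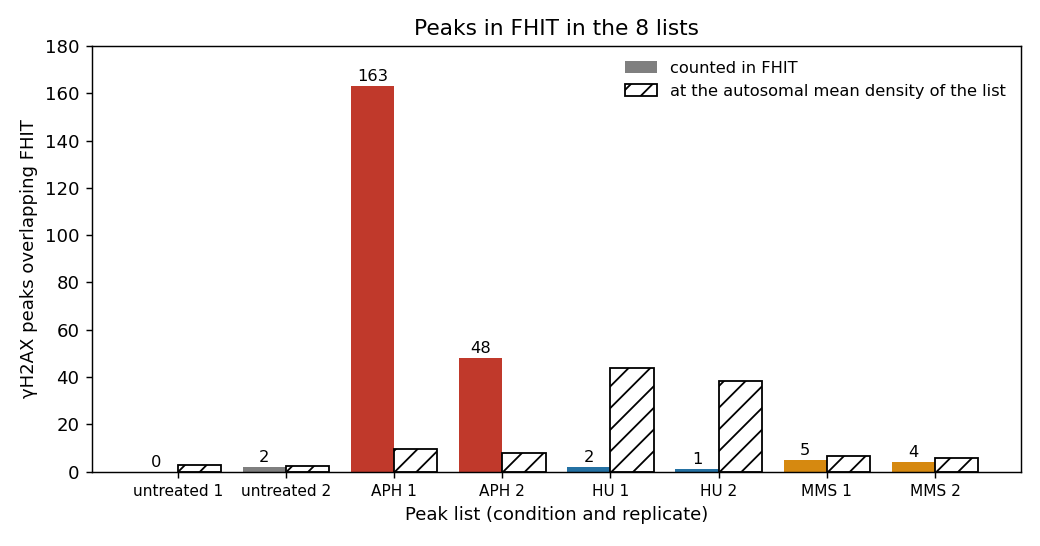
Number of γH2AX peaks that overlap FHIT in each of the 8 peak lists (filled bars, labelled with the count) beside the number that the autosomal mean density of the same list would give (hatched bars). The APH bars, 163 and 48, stand above their hatched bars, the HU bars, 2 and 1, stand far below theirs, and the untreated and MMS bars are within 3 peaks of theirs.

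Relative to the autosomal mean density, FHIT held 16.9 times as many peaks in APH replicate 1 and 6.28 times as many in APH replicate 2. The exact 95% Poisson interval of the count was 139 to 190 in the first and 35.4 to 63.6 in the second. The 2 intervals did not overlap each other. They cover counting error only and treat neighbouring peaks as independent. They are no test of the enrichment, since these counts chose the gene. The APH replicates differed 3.40-fold in FHIT peaks and 1.26-fold in autosomal peaks, so the size of the enrichment is known only to within that spread (11.6 ± 7.52, SD, n = 2).

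Under HU the relative density was 0.0459 in replicate 1 and 0.0262 in replicate 2 (0.0360 ± 0.0139, SD, n = 2). The upper 95% bounds were 0.166 and 0.146, again a description without a test. The number of peaks itself, 1.5 ± 0.707 under HU, was within the range of the untreated lists, 1.00 ± 1.41, while the HU lists were many times longer.

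MMS left FHIT near the autosomal mean, with relative densities of 0.751 and 0.700 (0.726 ± 0.0357, SD, n = 2). Without treatment the relative density was 0 in replicate 1 and 0.847 in replicate 2. The intervals of the MMS values, 0.244 to 1.75 and 0.191 to 1.79, both included the autosomal mean. The exact upper bound of the count of 0 in untreated replicate 1 allows a relative density of up to 1.41, and a depletion of FHIT without treatment was not detectable in either list.

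The bases under the peaks followed the counts. APH peaks covered 137 kb of FHIT in replicate 1 and 31.0 kb in replicate 2, which is 9.11% and 2.06% of the gene, against 0.449% and 0.350% of the autosomes. HU peaks covered 0.0814% and 0.0502% of the gene against 3.25% and 2.68% of the autosomes.

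The APH peaks were spread over nearly the whole gene rather than gathered at one place. In windows of 100 kb counted from the 3′ end of the gene, the 15 full windows held between 2 and 18 peaks in APH replicate 1 and between 0 and 6 in replicate 2, where the autosomal means were 0.641 and 0.508 per window. A window was called where its density was at least 3 times the autosomal mean in both replicates. Under APH 12 of the 16 windows passed (background 6.71% of all 27177 autosomal windows). The called windows filled chr3:59747277-60747276 without a gap, a stretch that runs from the 3′ end through introns 8 to 5 into intron 4. The other called windows were chr3:60847277-60947276, in intron 3, and chr3:61147277-61247276, in introns 2 and 1. None of the windows was called in the untreated lists (background 3.86%), under HU (background 11.6%) or under MMS (background 3.5%). For the untreated lists and HU this follows from the counts of the gene and adds nothing to them. Untreated replicate 1 had no FHIT peak, so no window could pass in both replicates. Under HU the autosomal means per window, 2.90 and 2.54, already exceeded the 2 and 1 peaks of the whole gene.

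**Figure D2:**
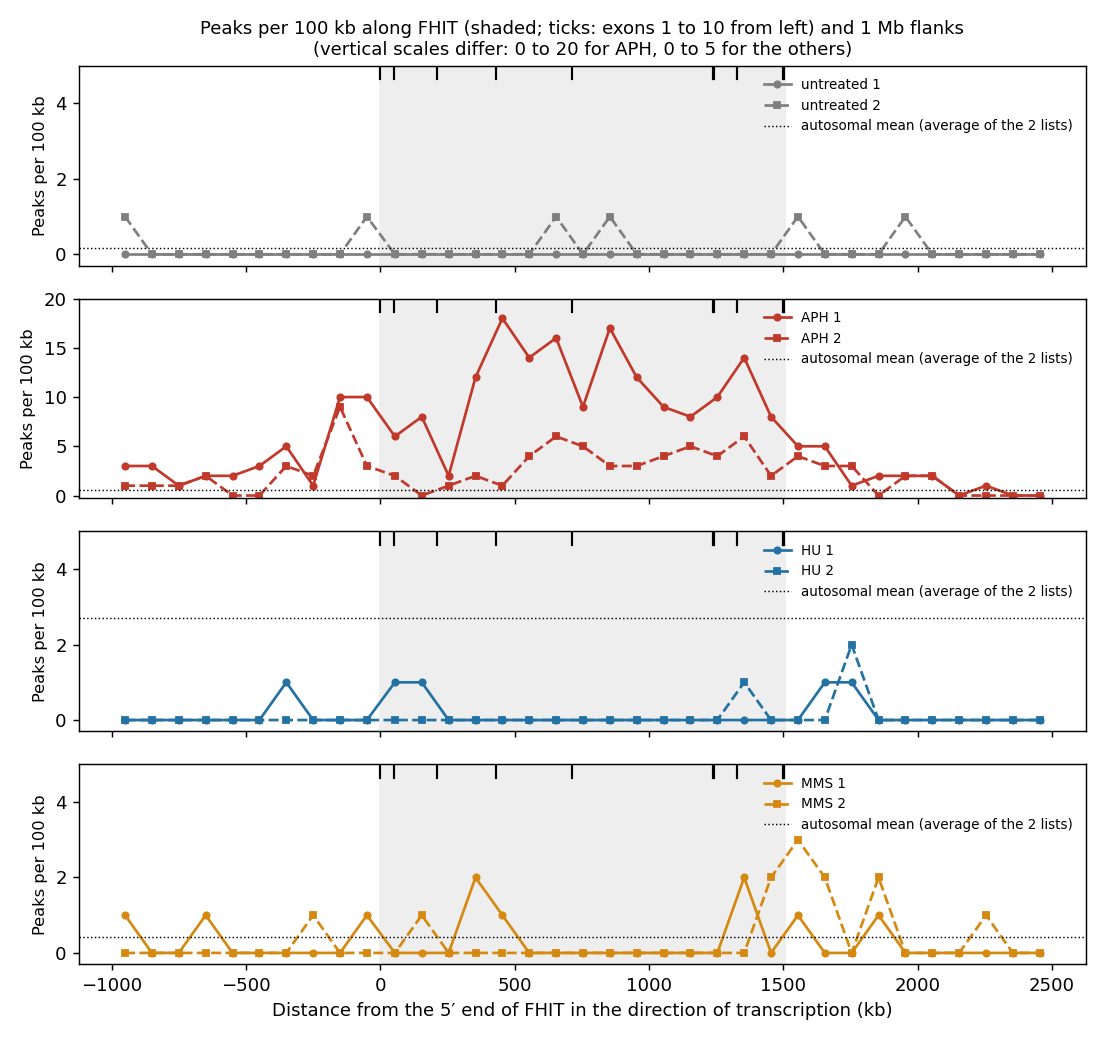
Peaks per window of 100 kb against the distance from the 5′ end of FHIT in the direction of transcription, in kb, for the untreated, APH, HU and MMS lists from top to bottom (circles and full lines, replicate 1; squares and dashed lines, replicate 2; ticks, exons; dotted line, mean autosomal density). Under APH most windows of the shaded gene lie above the dotted line, reaching 18 in replicate 1 and 6 in replicate 2, and the vertical scale is larger there than in the other panels.

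The 5′ part of the gene was sparser than the rest under APH. The 300 kb next to the 5′ end, with introns 1 and 2 and part of intron 3, held 5.33 peaks per 100 kb in replicate 1 and 1.00 in replicate 2, against 12.2 and 3.74 in the remaining 1204 kb. Both replicates were thus lower there, by 2.29-fold and 3.74-fold. The border of this stretch was set after the profile had been seen. Window by window the replicates were only weakly alike, with a Pearson correlation of 0.30 and a Spearman correlation of 0.31 over the 15 full windows. The window with 18 peaks in replicate 1, in introns 4 and 3, had 1 peak in replicate 2 and was not called.

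By intron, the density under APH was highest in intron 4 in replicate 1 and in intron 8 in replicate 2. Intron 4 held 47 and 11 peaks, or 16.5 and 3.86 per 100 kb. Intron 5, the longest at 523 kb, held 60 and 21 peaks, or 11.5 and 4.02 per 100 kb. Intron 8 held 16 and 8 peaks, or 9.41 and 4.71 per 100 kb. Introns 4 and 5 together had 65.6% of the peaks of replicate 1 and 66.7% of those of replicate 2, on 53.7% of the gene. Towards the 5′ end the densities were 6.82 and 1.36 per 100 kb in intron 3, 7.57 and 1.26 in intron 2, and 3.95 and 0 in intron 1. Introns 1 to 3 were thus below introns 4, 5, 7 and 8 in both replicates. Exons make up 0.207% of the gene. An exon was touched by 2 of the 163 peaks of APH replicate 1, by 1 of the 4 of MMS replicate 2 and by no peak of the other lists. Whether this differs from what the length of the exons gives was not tested.

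**Figure D3:**
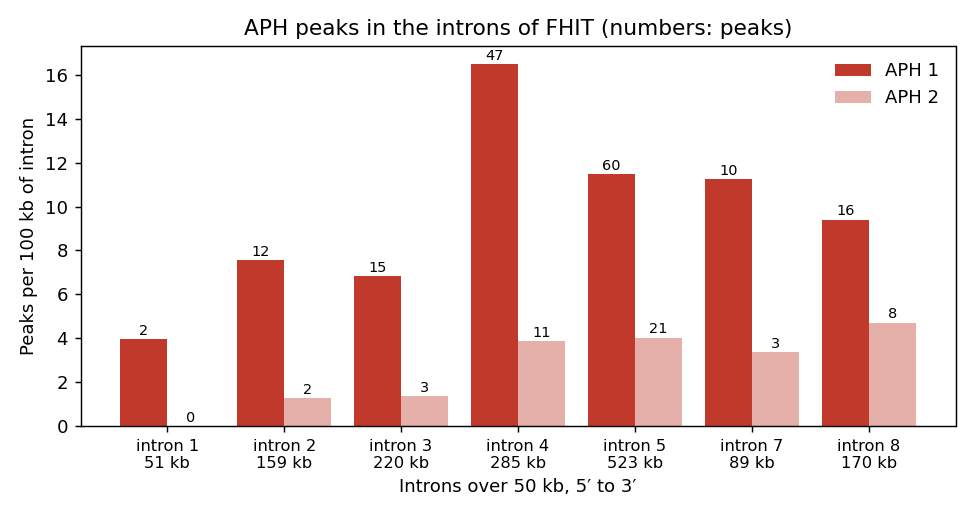
Density of APH peaks, in peaks per 100 kb, in the FHIT introns longer than 50 kb, ordered from 5′ to 3′, for replicate 1 (dark) and replicate 2 (light), with the number of peaks above each bar. Intron 4 is highest in replicate 1 at 16.5 and intron 8 in replicate 2 at 4.71, and introns 1, 2 and 3 are the lowest in both.

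Peaks under APH did not stop at the borders of FHIT. The 1 Mb beyond the 3′ end (chr3:58747277-59747276) held 18 and 14 APH peaks, 2.81 and 2.75 times the autosomal mean. The 1 Mb beyond the 5′ end (chr3:61251460-62251459) held 40 and 22, which is 6.24 and 4.33 times the mean. Both flanks were thus above the autosomal mean in both replicates, and the 5′ flank was the higher of them. In each flank 4 of 10 windows were called under APH. The densest window of APH replicate 2 in the whole region lay outside the gene, 100 to 200 kb beyond its 5′ end (chr3:61351460-61451459), with 9 peaks, and replicate 1 had 10 there. The density in the gene exceeded the mean density of both flanks 3.74-fold in replicate 1 and 1.77-fold in replicate 2. With flanks of 500 kb the mean of the replicates was 1.78 in place of 2.75, and the replicates differed. Outward from the 5′ end, the windows of these 500 kb held 10, 10, 1, 5 and 3 peaks in replicate 1. Replicate 2 had 3, 9, 2, 3 and 0 there. From the 3′ end outward they held 5, 5, 1, 2 and 2, and 4, 3, 3, 0 and 2. FHIT itself held 10.8 and 3.19 per 100 kb, so in replicate 2 the nearest 500 kb beyond the 5′ end were not sparser than the gene.

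At the gene's ends the APH signal ran on in both directions. In APH replicate 1 a peak straddled the 3′ end, and the next one outside lay 33.9 kb away. At the 5′ end the nearest peaks lay 6.45 kb inside and 5.55 kb outside. In APH replicate 2 the nearest peaks inside were 31.5 kb from the 3′ end and 67.3 kb from the 5′ end, and those outside lay at 14.02 and 13.87 kb. Both replicates thus had APH peaks on both sides of both ends.

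In the other conditions the flanks, like the gene, held few peaks. HU gave 2 and 2 peaks beyond the 3′ end and 1 and 0 beyond the 5′ end. MMS gave 2 and 7 beyond the 3′ end and 3 and 1 beyond the 5′ end, and the untreated lists gave 0 and 2 in each flank. Gene over flank was 0.886 and 0.665 under HU and 1.33 and 0.665 under MMS, so the MMS replicates fell on opposite sides of 1. Of the 15 full windows of FHIT, 12 had no HU peak in either replicate, a rule set after the counts had been seen (background 58.9% of autosomal windows).

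Protein-coding genes that reach into the flanks are CFAP20DC, 697 kb beyond the 3′ end, and PTPRG, a receptor protein tyrosine phosphatase, 310 kb beyond the 5′ end. CFAP20DC had 1 and 0 APH peaks. PTPRG had 18 and 8, or 3.82 and 2.14 times the autosomal mean, and 0 and 0 under HU. Neither gene passed the threshold of 3 in both APH replicates.

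Some of the individual peak positions in FHIT recurred between the APH replicates. A peak of the other replicate was overlapped by 20 of the 163 peaks of APH replicate 1 (12.3%, exact 95% binomial interval 7.66 to 18.3%) and by 20 of the 48 peaks of replicate 2 (41.7%, 27.6 to 56.8%). Over all autosomal peaks these shares were 10.4% and 13.3%. With peaks within 1 kb counted as shared, the shares were 22.1% and 62.5% in FHIT and 15.1% and 19.1% over the autosomes. More peaks per base in the other list raise the share, and that part was not tested. In the untreated, HU and MMS lists 0 FHIT peaks were shared between replicates. Over the autosomes the shares were 16.0% and 19.4% untreated, 43.3% and 51.0% under HU, and 5.98% and 6.97% under MMS. With at most 5 FHIT peaks in a list, the exact upper bounds of these shares of 0 were 52.2% or more. They therefore give no contrast with APH.

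Of the 20 replicated APH sites, 15 lay in introns 4 or 5. These introns make up 53.7% of the gene and held 65.6% and 66.7% of its APH peaks. Whether the sites differ from the other APH peaks in this was not tested. The first of the sequences above comes from a site in intron 4, chr3:60571664-60574637, with fold enrichments of 2.67 and 3.12, and the second from chr3:60101609-60102171 in intron 5, with 2.69 and 3.07. After it, chr3:60437246-60438072 in intron 5, had 2.76 and 3.00. The next, chr3:60855025-60858833 in intron 3, had 3.03 and 2.72, and the last of the 5, chr3:60015284-60015746 in intron 5, had 2.72 and 2.99. The mean fold enrichment of all 20 sites was between 2.45 and 2.89, so these 5 differed little in height from the rest. A peak of another condition touched 3 of the 20 sites, untreated replicate 2 at the first and HU at 2 others. All 3 touched a part found in APH replicate 1 alone, outside the stretch that both replicates shared. No site was found in both replicates of more than 1 condition.

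The 14 FHIT peaks outside APH were scattered. Of these, 8 overlapped an APH peak, always one of replicate 1, and none overlapped a peak of another list outside APH. APH peaks covered 9.11% of the gene in replicate 1 and 2.06% in replicate 2, and the other lists held at most 5 FHIT peaks each. Whether these overlaps differ from what that cover gives was not tested. The 2 untreated peaks lay in introns 4 and 5. The HU peaks lay in intron 2 in replicate 1 and in intron 8 in replicate 2. The MMS peaks lay in introns 3, 4 and 8 in replicate 1, with 2, 1 and 2 peaks. In replicate 2 they lay at the 3′ end and in introns 2, 8 and 9.

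Most FHIT peaks, like most autosomal peaks of the APH lists, were weak by the peak caller's own q-value. It adjusts for the number of positions examined. At a q-value of at most 0.05, 6 of the 163 peaks of APH replicate 1 and 0 of the 48 of replicate 2 remained, and HU replicate 1 kept 1. The autosomes as a whole kept 97 of 17658 and 183 of 14009 peaks in the APH lists. In the HU lists they kept 62672 of 79891 and 42142 of 69922. FHIT therefore held 6.19% of the 97 such peaks of APH replicate 1 on 0.0546% of the autosomal bases. The 6 peaks lay in introns 3, 4 and 5, with fold enrichments of 3.12 to 3.48 and q-values of 0.0149 to 0.0338, and none of them overlapped a peak of replicate 2. The highest, chr3:60439765-60440041 in intron 5, had a fold enrichment of 3.48 and also overlapped an untreated peak.

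Width, fold enrichment and base composition of the FHIT peaks were not used to choose the gene. The median width of the FHIT peaks was 668 bp in APH replicate 1 and 529 bp in APH replicate 2, where the autosomal medians were 562 and 555 bp. For HU it was 612.5 and 755 bp against 764 and 743 bp, and for MMS 364 and 413 bp against 519 and 531 bp. The 2 peaks of untreated replicate 2 had a median of 428.5 bp against 550 bp. FHIT peaks were thus wider than the median of their list in APH replicate 1 and HU replicate 2 and narrower in the other 5 lists with FHIT peaks. On the log2 scale the width relative to the list's median was 0.40 higher under APH than in the other lists (two-sided exact permutation test over 7 lists, p = 0.0952). As a mean over the peaks the difference was 0.70, and without APH replicate 1 it was 0.24.

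Median fold enrichment differed little between FHIT peaks and autosomal peaks, and the direction varied between lists. In APH replicate 1 at least 3-fold enrichment was reached by 11 of 163 FHIT peaks and 439 of 17658 autosomal peaks. In APH replicate 2 it was reached by 3 of 48 and 1027 of 14009. In the APH lists the median was 2.67 and 2.60 over FHIT peaks and 2.55 and 2.67 over autosomal peaks. HU gave 2.54 and 2.60 against 2.70 and 2.77, and MMS 2.66 and 2.58 against 2.64 and 2.64. Untreated replicate 2 gave 2.66 against 2.61. The 3 HU peaks differed from the medians of their lists by −0.158 and −0.174, further below than in any of the other lists. That difference, −0.177 against the other lists, had p = 0.0476 in the exact permutation test, the smallest that 21 assignments allow, and an adjusted p of 0.429 over the 12 tests made.

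The GC content of the FHIT peaks was low, as that of the gene is. In the APH lists its median was 40.5% and 40.9% against autosomal medians of 47.4% and 46.1%. HU peaks in FHIT had 37.4% and 36.8% against 44.4% and 45.0%, and MMS peaks 41.9% and 39.7% against 45.8% and 44.3%. Untreated replicate 2 had 47.4% against 45.5%. All treated lists were lower in FHIT than in the autosomes, and the 2 untreated peaks were higher. In the 12 exact permutation tests of width, fold enrichment and GC content, 1 gave p under 0.05. With smallest possible p-values of 0.0476 and, for the untreated group, 0.143, none of the 12 could have passed 0.05 after Benjamini-Hochberg adjustment, so the adjusted values say nothing about whether the lists differ. Untreated replicate 1 had no FHIT peak and dropped out of these tests, which left the untreated group with 1 list.

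Long A or T runs, which have been linked to fragile DNA, were counted in windows of 500 bp centred on the peaks. A run of at least 10 A or T stood at 7.36% of the FHIT peaks of APH replicate 1 and at 6.25% of those of replicate 2. The shares over all autosomal peaks of these lists were 9.84% and 9.82%. Among all windows of 500 bp the share was 13.3% in FHIT and 15.3% in the autosomes. FHIT peaks under APH thus held such runs less often than FHIT windows did in both replicates, a description without a test, with few counts in replicate 2.

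Among the 309 autosomal protein-coding genes of at least 500 kb, FHIT stood at rank 2 in APH replicate 1 and at rank 3 in replicate 2. The highest in both was WWOX, an oxidoreductase gene and tumour suppressor at the fragile site FRA16D, with 22.4 and 9.37 times the autosomal mean. Among the 3506 genes of at least 100 kb FHIT stood at rank 12 and rank 86. FHIT was one of the 11 large genes with at least 3 times the autosomal mean in both APH replicates (background 3.56% of genes of at least 500 kb and 5.82% of genes of at least 100 kb). It did not pass in the untreated lists (backgrounds 0.971% and 4.19%), under HU (0.647% and 8.47%) or under MMS (1.62% and 6.5%).

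Low density under HU was common among large genes. FHIT was one of 268 genes of at least 500 kb that held at least 3 times fewer peaks than the autosomal mean in both HU replicates (background 86.7%, against 46.2% of genes of at least 100 kb), and the median large gene had a density of 0 in both HU lists. Both high density under APH and low density under HU were found in 6 large genes, 1.94% of the 309. That is 6 of the 11 large genes high under APH, where 86.7% of all large genes were low under HU. Low density under HU was thus not more frequent among the genes high under APH. The 6 genes were WWOX, FHIT, CACNA1C, ZFHX3, ADARB2 and KIRREL3, a list named after its values had been seen. WWOX had 160 and 53 APH peaks and 0 and 0 HU peaks, beside 163 and 48 and 2 and 1 in FHIT.

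**Figure D4:**
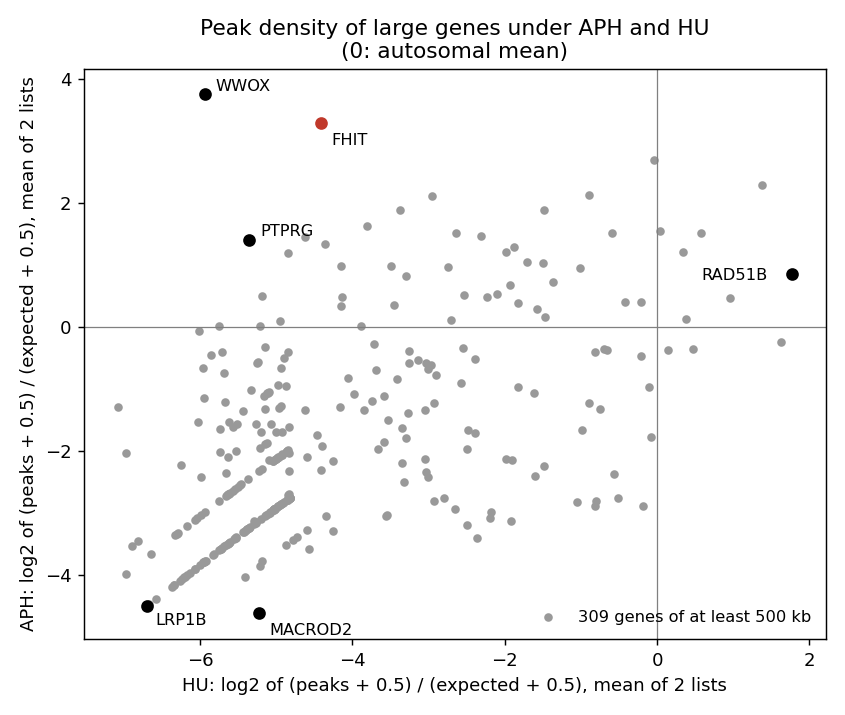
Density of peaks in the 309 autosomal protein-coding genes of at least 500 kb, as log2 of peaks over the number at the autosomal mean with 0.5 added to both, averaged over the 2 lists, under HU (horizontal) and APH (vertical). FHIT (red) and WWOX lie at the upper left, high under APH and low under HU, RAD51B lies at the right, and most genes lie below 0 on both axes.

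The genes whose density over the 8 lists was most like that of FHIT, by Pearson correlation of the log2 relative density, were ALK, KSR2, PTPRG, GLIS3 and ZFHX3. ALK, a receptor tyrosine kinase, had a correlation of 0.957, KSR2, a kinase-like scaffold protein, 0.937, and PTPRG 0.933. GLIS3, a zinc finger transcription factor, reached 0.927 and ZFHX3, a homeobox transcription factor, 0.916. The median over the 308 other large genes was 0.486 and WWOX had 0.896. Before the logarithm, 0.5 was added to the counted and to the expected peaks, so a gene without peaks takes its values from list length alone. LRP1B, with no peak in any list, stood at −4.50 under APH, −6.70 under HU, −4.05 under MMS and −2.86 untreated. Part of a correlation can therefore reflect list length, and how much was not tested. The order rests on 8 points, which fall into 4 conditions, and it measures the shape of the pattern rather than its height. ALK, for instance, had 3.21 and 2.16 times the autosomal mean under APH.

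Most other large genes at common fragile sites had few APH peaks in these lists. Of 18 other such genes, 1 passed the threshold under APH, WWOX (background 3.56%), and 17 were low under HU (background 86.7%). The median relative density of the 18 genes under APH was 0.0639, against 0.172 over all large genes. LRP1B, a giant lipoprotein receptor gene, had no peak in any of the 8 lists, and MACROD2, an ADP-ribose hydrolase gene, had 0 and 0 with APH, 1 and 1 with HU, and 2 and 3 with MMS. The exception under HU was RAD51B, a gene of homologous recombination, with 90 and 81 HU peaks, 3.41 and 3.51 times the autosomal mean. FHIT and WWOX were thus far above the other listed genes under APH, where the next, RAD51B and AUTS2, had means of 1.89 and 1.87.

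**Figure D5:**
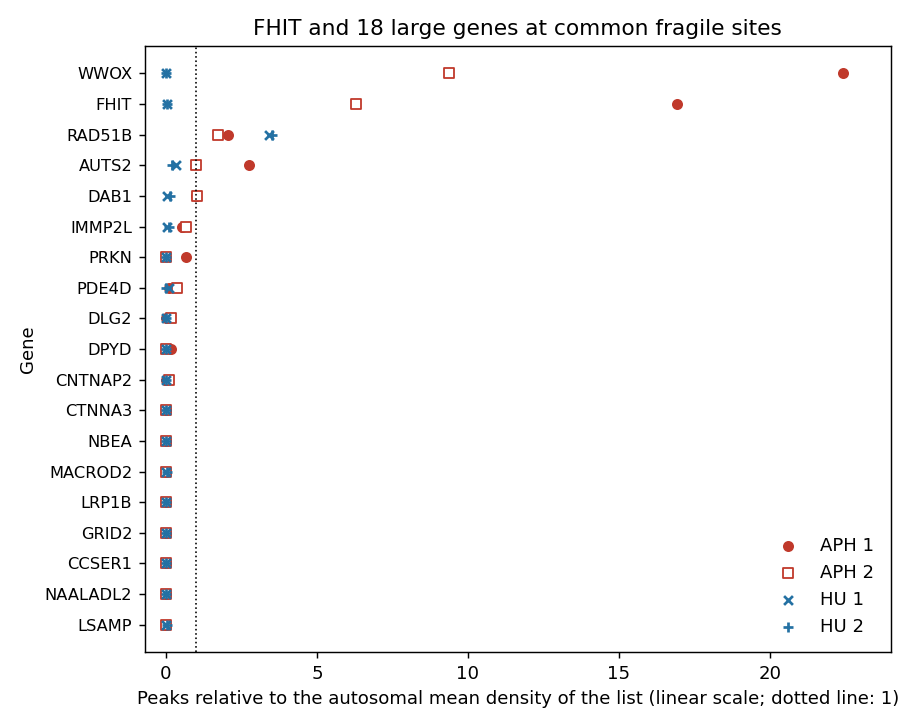
Peak density relative to the autosomal mean of the list in FHIT and 18 other large genes at common fragile sites, under APH (red circles and squares) and HU (blue crosses) for each replicate, on a linear scale. WWOX and FHIT stand apart under APH in both replicates, RAD51B is the one gene above 1 under HU, and most of the other genes lie at or near 0.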

How the data were processed

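γH2AX ChIP-seq of untreated, APH, HU and MMS cells was analysed from 8 peak lists, 2 per condition. The authors aligned paired-end reads to GRCh38 with Bowtie2, removed low-quality reads and PCR duplicates with SAMtools, ran MACS2 in broad mode for every replicate with input as background, and removed blacklisted regions. Versions are not given in the sources used here. No input data were analysed here. The deposited lists give each peak a fold enrichment (a ratio), a −log10 p-value, a −log10 q-value and a score, which was not used. The lowest −log10 p in the lists was 3.00. MACS2 used a fragment size set for each library.

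Peaks were counted in the GENCODE release 44 gene body, in windows of 100 kb and in flanks of 1 Mb. Density was divided by that of the autosomes of the same list, taken over 2756 Mb of assembled bases. Python 3.11.15, numpy 2.4.6, pandas 2.3.3 and scipy 1.17.1 were used. The counting and the permutation tests were tested on simulated data. Shares and counts of peaks have exact 95% binomial and Poisson intervals. Medians of width, fold enrichment and GC content of FHIT peaks, each relative to the median of the list, were compared by exact permutation of lists.

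FHIT, the comparison genes and the tests were chosen with earlier results of these data known. Named by rule were the called windows, the 5 replicated sites of highest mean fold enrichment per condition, the 5 genes of at least 500 kb most correlated with FHIT, the genes in the flanks and, of 18 fragile site genes, WWOX, LRP1B and MACROD2. Chosen after values were seen were the windows without HU peaks, the 300 kb next to the 5′ end, the genes high under APH and low under HU, the peaks passing the q-value, the A or T runs, RAD51B and AUTS2. The alternatives were the midpoint rule, the stronger 50% of peaks, enrichment of at least 3-fold, a q-value of at most 0.05, peaks of both replicates, equal numbers of peaks, covered bases, joined peaks, other baselines, flank and window sizes, the RefSeq gene body, the replicate block and leaving out each replicate.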

Additional observations from a re-analysis of the deposited data

Results flagged for a closer look

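The relative density of FHIT lay above the autosomal mean in both APH lists and below it in both lists of HU and of MMS. The mean under APH was 322 times that under HU and 16.0 times that under MMS. With APH replicate 1 alone these folds were 469 and 23.3, and with APH replicate 2 alone 174 and 8.65. The HU mean rests on 2 peaks and 1 peak, and it was 0 with peaks of both replicates or with equal numbers of peaks, where no fold can be given. These differences were not tested, since the density was the value that chose the gene.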

How the results depend on the processing

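In every alternative run, the mean relative density of FHIT stayed above 1 under APH and below 1 under HU, but APH replicate 2 fell to 0 at a q-value of at most 0.05. Under APH the mean was 25.6 at enrichments of at least 3-fold (45.9 and 5.35 in the lists), 56.7 at that q-value (113 and 0), 19.8 with peaks of both replicates, 26.04 with equal numbers of peaks (45.7 and 6.35) and 20.3 against the other large genes. Under HU it was 0, 0.0146, 0, 0 and 0.292 in the same order, and 0.0219 by covered bases. With the stronger 50% of peaks it was 18.5 under APH (31.5 and 5.49) and 0.0229 under HU. Under MMS it was 0, 0, 0 and 0.847 for the first 4, 0.450 by covered bases, 0.638 by midpoint, 0.801 with the stronger 50% of peaks and 0.817 against chromosome 3. Against the other large genes, MMS turned to 1.53 and the untreated lists to 1.11, above 1. The untreated mean was 0.233 by covered bases, 0.657 against chromosome 3 and 0 under the first 3 alternatives. Leaving out a replicate gave 6.28 to 16.9 under APH, 0.0262 to 0.0459 under HU, 0.700 to 0.751 under MMS and 0 to 0.847 without treatment. Gene over flank, 2.75 under APH, was 1.78 with flanks of 500 kb, 3.24 with flanks of 2 Mb and 1.77 to 3.74 with a replicate left out. Under HU it moved from 0.776 to 0.388 with flanks of 500 kb and 0.0404 with flanks of 2 Mb. Under MMS, 0.997, it was 0.665 to 1.33 with a replicate left out. The cause of these changes was not tested.

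Deviations of same-numbered lists correlated between −0.0177 and 0.0517, so no pairing by replicate number was seen. Such values cannot exclude that same-numbered lists were handled together. With the replicate block the lowest of the 12 p-values of width, fold enrichment and GC content was 0.0833 in the exact permutation test, the smallest this design allows with 2 lists in a group, and the HU difference in fold enrichment was −0.177 as without it. Neither these tests nor those with a list left out could pass after adjustment, so they show nothing about stability. The APH width difference, 0.40 on the log2 scale, was 0.70 as a mean over the peaks and 0.24 without APH replicate 1. Uncalled differences changed sign as means over the peaks for the HU width (−0.38 on the log2 scale) and the MMS GC content (−0.0345 percentage points). Leaving out 1 list at a time, the HU width ranged from −0.11 to 0.23, the APH fold enrichment from −0.00554 to 0.189 and the MMS fold enrichment from −0.0152 to 0.0662, and these also changed sign. With 2 lists per condition and no read numbers, the size of the APH enrichment and any difference in the other conditions are known only roughly.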
